A study of Mus musculus with 16 samples.

Results

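Il4, Tmem212, Hpgds, Scel and S100a10 were selected because their levels on arrays of R7T1 cells, a line of mouse beta cells, stood higher with BayK8644(2a) at the later times of a time course. They are 5 of 18193 genes named on the array, and all 8 probe sets that the platform annotation assigns to them were taken, out of 45101 probe sets. Cells received BayK8644(2a) together with Exendin-4, BayK8644(2a) alone, Exendin-4 alone, or DMSO as vehicle, with 1 array for each treatment at 0.5, 2, 6 and 24 h and thus 16 arrays and no replicate. BayK8644 is a dihydropyridine that favours the open state of L-type calcium channels, and Exendin-4 is a peptide agonist of the GLP-1 receptor. The labels leave the 2a unexplained, the compound was taken to be BayK8644, and the labels give no dose. Nothing in the labels says that the arrays came from separate cultures. With no replicate, the spread behind a p-value here is how far the 2 agents depart from adding up at each time. It holds noise and any true interaction together, and the noise could be technical alone.

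The genes have unlike roles. Il4 encodes interleukin-4, a cytokine made by T helper 2 cells, mast cells and basophils, whose transcription in T cells is driven by calcium through calcineurin and NFAT. Hpgds encodes the haematopoietic prostaglandin D synthase, which converts prostaglandin H to prostaglandin D. S100a10 encodes p11, a member of the S100 family that forms a complex with annexin A2. Scel encodes sciellin, a precursor of the cornified envelope of squamous epithelia. Tmem212 encodes a transmembrane protein best known as a marker of ciliated and ependymal cells. Opening of L-type calcium channels in beta cells lets calcium in, which drives insulin secretion and calcium-dependent transcription.

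Levels are log2 values of GCRMA intensity, a scale on which 1 unit is a doubling. The background floor of the method lies at low log2 values, and log2 4, an intensity of 16, was the level taken to lie clear of the floor. The name under which the genes were grouped, late genes near the floor, held for some of them only. S100a10 lay above log2 4 on all 16 arrays in 2 of its 3 probe sets, with a lowest value of 4.98. Tmem212 lay above log2 4 on 7 of 8 arrays without BayK8644(2a). Il4 stood higher with BayK8644(2a) from 2 h on. Hpgds and Scel were under log2 4 on all DMSO arrays, and Hpgds also passed log2 4 with Exendin-4 alone.

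Upstream sequence from RefSeq (build GRCm38.p6) was used for Il4, Tmem212, Hpgds and Scel, and stretches of the windows of 250 bases before an annotated transcript start are shown for 3 of them because they hold letters of motifs bound by calcium-responsive factors. Il4 is annotated at chr11:53612460-53618665 and the window is chr11:53618666-53618915, minus strand. Tmem212 is annotated at chr3:27866065-27896391 and the window is chr3:27896369-27896618, minus strand, before a transcript that starts inside the gene's span. Scel is annotated at chr14:103513061-103613346 and the window is chr14:103513091-103513340, plus strand, likewise before a transcript that starts inside the span. Of it, the 27 bases around 1 match are shown, chr14:103513295-103513321. Capitals mark matches to GGAAA, the core of NFAT sites, or to TGANTCA, the AP-1 site, on either strand (TTTCC is GGAAA read on the other strand), and no matches of different motifs overlap.
Il4: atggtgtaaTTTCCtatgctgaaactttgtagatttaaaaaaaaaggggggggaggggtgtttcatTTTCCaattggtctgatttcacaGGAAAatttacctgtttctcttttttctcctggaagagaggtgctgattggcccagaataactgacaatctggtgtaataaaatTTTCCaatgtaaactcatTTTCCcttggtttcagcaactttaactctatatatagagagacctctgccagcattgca
Tmem212: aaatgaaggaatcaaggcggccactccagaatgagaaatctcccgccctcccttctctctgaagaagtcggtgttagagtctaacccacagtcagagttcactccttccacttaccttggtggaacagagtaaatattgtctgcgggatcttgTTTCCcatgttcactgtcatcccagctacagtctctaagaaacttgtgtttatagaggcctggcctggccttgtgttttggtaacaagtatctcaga
Scel: cctccctgcgTGACTCAgtgttgagag

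The Il4 window held 5 matches to GGAAA, which began 241, 184, 161, 77 and 59 bases before the start. Of 32851 upstream windows of the same length in the RefSeq table, 55.6% held at least 1 such match and 0.39% held 5 or more. A second RefSeq start of Il4, inside the gene, had 0 matches. Tmem212 held 1 match to GGAAA, and Scel held 1 match to TGANTCA, 36 bases before the start, a motif found in 6.75% of all windows. The CRE core TGACG, found in 17.8% of windows, was in none of the members' windows, and the Hpgds window matched none of these motifs. A match describes letters and does not show binding.

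Il4 had the largest difference of the 5 genes at 2 h. At 0.5 h it stood at 4.22 with both agents, 4.28 with BayK8644(2a), 4.28 with Exendin-4 and 4.29 with DMSO, so the 4 arrays lay together. At 2 h it stood at 7.09 with both agents and 5.80 with BayK8644(2a), against 3.79 with Exendin-4 and 3.66 with DMSO. At 6 h the values were 7.43 with both agents and 7.02 with BayK8644(2a), against 3.95 with Exendin-4 and 4.01 with DMSO. At 24 h they were 7.21 with both agents and 6.87 with BayK8644(2a), against 3.78 with Exendin-4 and 3.75 with DMSO. All 6 Il4 values with BayK8644(2a) at 2 h or later were thus above all 8 values without it. In the deposited linear unit, the 6 h values were intensities of 172 with both agents and 130.2 with BayK8644(2a), against 15.4 with Exendin-4 and 16.1 with DMSO. The mean difference made by BayK8644(2a), over the pair with and the pair without Exendin-4, was -0.04 at 0.5 h, 2.72 at 2 h, 3.25 at 6 h and 3.28 at 24 h, the last a 9.68-fold difference. With 1 array left out in turn it lay between 2.14 and 3.30 at 2 h and between 3.12 and 3.43 at 24 h. Leaving out an array leaves 1 pair at its time, so for every member such ends are the 2 single-pair differences. Arrays of other times do not change them. The Il4 difference therefore came between 0.5 and 2 h and was close to its 24 h size by 6 h.

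Tmem212 stood further above the arrays without BayK8644(2a) at each later time. At 0.5 h its 4 arrays lay between 3.78 and 4.01. At 2 h it stood at 6.04 with both agents but at 4.74 with BayK8644(2a) alone, against 4.54 with Exendin-4 and 4.65 with DMSO. The array with BayK8644(2a) alone was at that time barely above the 2 arrays without it. At 6 h it stood at 6.46 with both agents and 5.92 with BayK8644(2a), against 4.64 with Exendin-4 and 4.51 with DMSO. At 24 h the values were 8.25 with both agents and 6.92 with BayK8644(2a), against 4.62 with Exendin-4 and 4.53 with DMSO. The mean difference made by BayK8644(2a) was 0.80 at 2 h, 1.62 at 6 h and 3.01 at 24 h, an 8.03-fold difference at the last time. With 1 array left out in turn it lay between 0.09 and 1.497 at 2 h, lowest on leaving out the combination or Exendin-4 array of 2 h, and between 2.38 and 3.63 at 24 h. At 24 h the combination reached the highest Tmem212 level of the 16 arrays.

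Scel separated the combination from BayK8644(2a) alone more than any other member at 6 h. Its probe set 1422837_at lay between 3.25 and 3.39 at 0.5 h. At 2 h it stood at 4.69 with both agents and 3.61 with BayK8644(2a), against 3.32 with Exendin-4 and 3.26 with DMSO. At 6 h the values were 5.44 with both agents and 3.67 with BayK8644(2a), against 3.28 with Exendin-4 and 3.28 with DMSO. At 24 h they were 5.56 with both agents and 4.47 with BayK8644(2a), against 3.497 with Exendin-4 and 3.37 with DMSO. With both agents Scel was above log2 4 from 2 h, and with BayK8644(2a) alone at 24 h only. In the linear unit the 24 h intensities were 47.2 with both agents and 22.2 with BayK8644(2a), against 11.3 with Exendin-4, the highest of the 8 arrays without BayK8644(2a), and 10.3 with DMSO. The mean difference made by BayK8644(2a) was 0.87 at 2 h, 1.27 at 6 h and 1.58 at 24 h. With 1 array left out in turn it lay between 0.35 and 1.38 at 2 h, lowest on leaving out the combination or Exendin-4 array of 2 h, and between 1.11 and 2.06 at 24 h. A second probe set of Scel, 1459426_at, stayed between 2.20 and 2.27 on all 16 arrays and showed no such pattern.

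S100a10 started from a level clear of the floor and was higher with BayK8644(2a) from 2 h on. Probe set 1416762_at stood at 6.29 with both agents, 6.31 with BayK8644(2a), 6.22 with Exendin-4 and 5.99 with DMSO at 0.5 h. At 2 h it stood at 7.15 with both agents and 6.91 with BayK8644(2a), against 5.69 with Exendin-4 and 6.33 with DMSO. At 6 h the values were 7.97 with both agents and 7.59 with BayK8644(2a), against 5.98 with Exendin-4 and 5.82 with DMSO. At 24 h they were 8.42 with both agents and 7.88 with BayK8644(2a), against 6.23 with Exendin-4 and 6.55 with DMSO. The mean difference made by BayK8644(2a) was 1.02 at 2 h, 1.88 at 6 h and 1.76 at 24 h, the last a 3.39-fold difference. With 1 array left out in turn it lay between 0.58 and 1.46 at 2 h, lowest on leaving out the combination or Exendin-4 array of 2 h, and between 1.33 and 2.19 at 24 h. Probe set 1456642_x_at gave 1.22, 1.76 and 1.74 at those times, while 1439348_at stayed between 2.43 and 2.53 on all arrays.

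Hpgds differed from the other members in its late course. At 0.5 h it stood at 2.43 with both agents, 2.61 with BayK8644(2a), 2.74 with Exendin-4 and 3.16 with DMSO, all near the floor. At 2 h its 4 arrays lay between 2.90 and 3.22, and at 6 h it stood at 3.72 with both agents and 3.65 with BayK8644(2a), against 3.16 with Exendin-4 and 3.22 with DMSO. At 24 h it stood at 4.98 with both agents, 4.71 with BayK8644(2a) and 4.72 with Exendin-4, against 3.29 with DMSO. The 3 arrays with an agent at 24 h were thus above log2 4, and the DMSO array was not. BayK8644(2a) over DMSO was 1.42 at 24 h, and the combination over Exendin-4 was 0.26. The groups with and without BayK8644(2a) overlapped at 24 h for Hpgds, and the mean difference of 0.84 there was 0.26 without the DMSO or the BayK8644(2a) array of 24 h and 1.42 on leaving out the combination or Exendin-4 array.

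**Figure D1:**
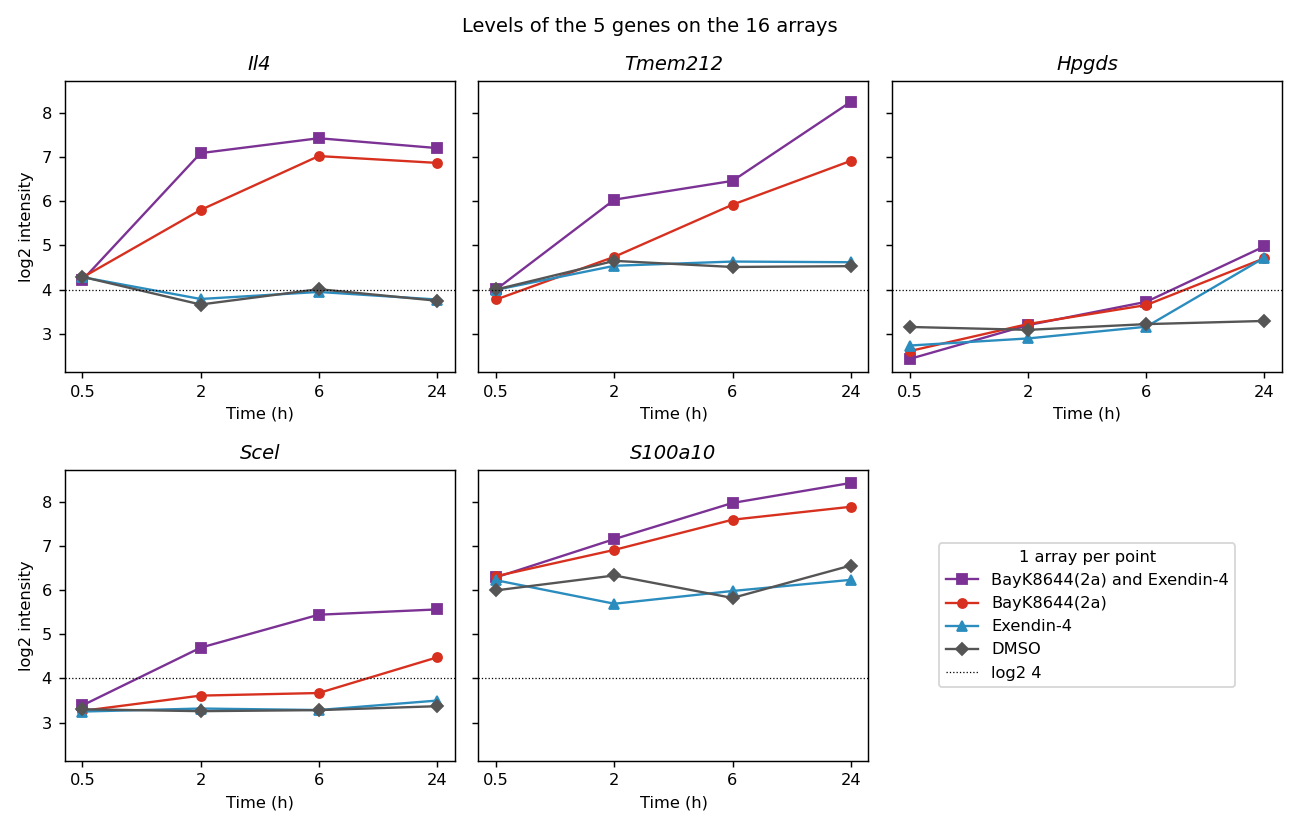
Log2 intensity (vertical axis) of the probe set that stands for each gene against time in h (horizontal axis, evenly spaced), 1 array per point, with the combination in purple, BayK8644(2a) in red, Exendin-4 in blue and DMSO in grey, and log2 4 dotted. Il4 stands at 7.09 with both agents at 2 h, Tmem212 reaches 8.25 at 24 h, and Hpgds at 24 h is low with DMSO only, at 3.29.

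The first time above log2 4 ordered the genes as follows. Under BayK8644(2a) alone it was 2 h for Tmem212 and 24 h for Hpgds and Scel. Under Exendin-4 alone it was likewise 2 h for Tmem212 and 24 h for Hpgds, and Scel did not pass. Under both agents it was 0.5 h for Tmem212, 2 h for Scel and 24 h for Hpgds. With DMSO Tmem212 passed at 0.5 h, so for that gene the level marks no rise made by BayK8644(2a). Hpgds and Scel did not pass with DMSO. Il4 and S100a10 were already above log2 4 at 0.5 h under every treatment, so for them this level marks no rise. Tmem212 lay at the level itself at 0.5 h, with 4.006 with both agents and 4.004 with DMSO just inside it and 3.997 with Exendin-4 just outside it. A level of log2 5 gave 2 h for Il4 under BayK8644(2a) with and without Exendin-4. For Tmem212 that level gave 2 h under both agents and 6 h under BayK8644(2a) alone, and for Scel it gave 6 h under both agents. Hpgds did not reach log2 5 on any array, and Scel did not reach it under BayK8644(2a) alone. With log2 3.5, Hpgds passed at 6 h under BayK8644(2a) with and without Exendin-4, and at 24 h under Exendin-4 alone. That level also gave 2 h for Scel under BayK8644(2a) with and without Exendin-4, so the 24 h of Scel under BayK8644(2a) alone depends on the level chosen, and it gave 0.5 h for Tmem212 under every treatment. No array without BayK8644(2a) had Il4, Tmem212 or Scel above log2 5.

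**Figure D2:**
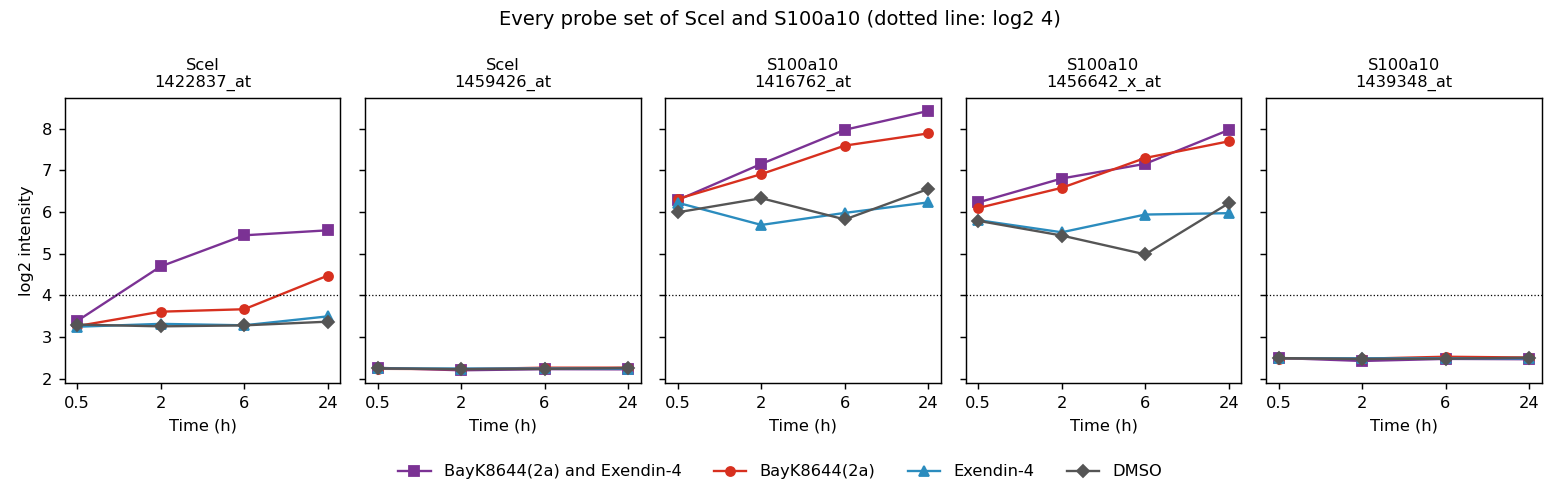
Log2 intensity against time in h for each of the 2 probe sets of Scel and the 3 of S100a10, 1 array per point, same colours as the plot of levels. Probe sets 1459426_at and 1439348_at lie flat below log2 3 on all 16 arrays, and both detected S100a10 probe sets are higher with BayK8644(2a) from 2 h on.

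Linear models over all 10610 genes tested (limma) gave the comparisons that the selection did not use. A gene entered where a probe set reached log2 4 on at least 2 of the 16 arrays. All 5 genes entered, Scel through its arrays with BayK8644(2a) only. Those were the arrays with both agents at 2, 6 and 24 h and with BayK8644(2a) alone at 24 h. Hpgds entered through its 24 h arrays with both agents, with BayK8644(2a) alone and with Exendin-4 alone. The Exendin-4 and interaction tests of Scel and Hpgds below are thus not independent of the filter. In the contrast that selected them, BayK8644(2a) present against absent at 24 h, Il4, Tmem212 and S100a10 were past an adjusted p of 0.05 and Hpgds and Scel were not. Of all genes 2.99% were called higher there, and since this contrast selected the members, nothing is read from their count of 3. Likewise, 4 of the 5 members, all but Hpgds, had the 6 arrays with BayK8644(2a) from 2 h on above the 8 arrays without it, as did 1.73% of all genes.

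Exendin-4 made no difference that passed in any member at any time. Il4 with Exendin-4 present against absent differed by 0.71 ± 0.25 at 2 h (SE, 2 arrays against 2, 95% interval 0.15 to 1.26, limma adjusted p = 0.777). That mean combined 1.29 between both agents and BayK8644(2a) alone with 0.12 between Exendin-4 and DMSO. Hpgds differed by 0.85 ± 0.23 at 24 h (interval 0.32 to 1.38, limma adjusted p = 0.783), which combined 0.27 in the presence of BayK8644(2a) with 1.43 in its absence. Scel differed by 0.89 ± 0.40 at 6 h (interval -0.01 to 1.78, limma adjusted p = 0.698), and Tmem212 by 0.71 ± 0.34 at 24 h (interval -0.06 to 1.49, limma adjusted p = 0.846). S100a10 differed by between -0.20 and 0.27 over the 4 times. Across all genes, Exendin-4 called 1 gene at 0.5 h (0.00943%), 2 at 2 h (0.0189%), and 0 at 6 h and at 24 h (0%), where 739 genes at 6 h and 627 at 24 h had an unadjusted p under 0.05. The calls were Nr4a1, an early response nuclear receptor gene, at 0.5 and 2 h, and Ppargc1a, a metabolic coactivator gene, at 2 h, both named after their values were seen.

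The combination was also set against the sum of its agents. This interaction is the Exendin-4 difference in the presence of BayK8644(2a) minus that in its absence, averaged over the 4 times. It was 0.98 ± 0.23 for Scel (SE, 95% interval 0.46 to 1.51, limma adjusted p = 0.710) and 0.83 ± 0.21 for Tmem212 (interval 0.34 to 1.31, limma adjusted p = 0.744). Il4 had 0.47 ± 0.20 and S100a10 0.43 ± 0.20 (limma adjusted p = 0.778 for both), and Hpgds had -0.16 ± 0.24 (limma adjusted p = 0.886). None of these passed over all genes. No gene of the array did, 0 of 10610 (0%), with 648 at an unadjusted p under 0.05. At single times, with 1 array for each term and no test, Scel had 1.03 at 2 h, 1.77 at 6 h and 0.96 at 24 h. Tmem212 had 1.41, 0.42 and 1.25 at those times, and Il4 had 1.16, 0.47 and 0.31. Hpgds had -1.16 at 24 h, the opposite sign. In the second S100a10 probe set, 1456642_x_at, the value at 6 h was -1.10, against 0.22 in 1416762_at, so the 2 probe sets of that gene disagreed there. Of 25 tests of members against Exendin-4 or the interaction, 0 passed and 5 had an unadjusted p under 0.05.

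**Figure D3:**
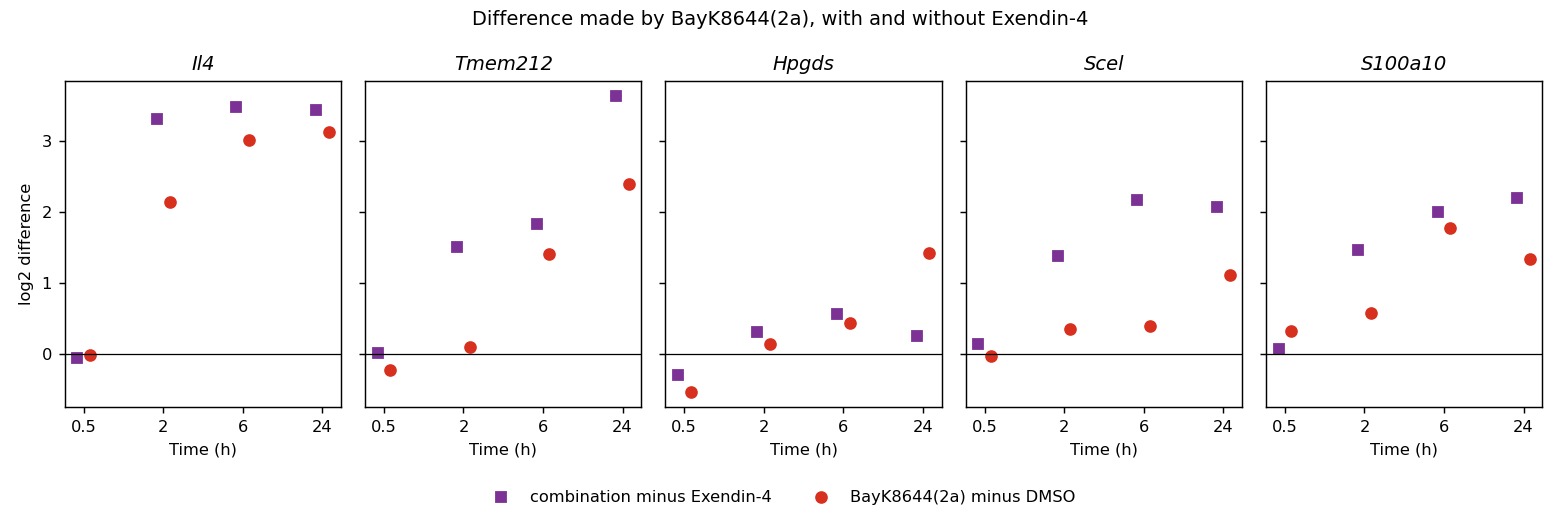
Log2 difference made by BayK8644(2a) (vertical axis) against time in h, with purple squares for the combination minus Exendin-4 and red circles for BayK8644(2a) minus DMSO, each the difference of 2 single arrays. For Scel at 6 h they stand at 2.16 (squares) and 0.39 (circles), and for Hpgds at 24 h at 0.26 (squares) and 1.42 (circles).

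Genes that act with the members were examined next, in the BayK8644(2a) contrast at 24 h, where 5.11% of all genes were called, 2.99% higher and 2.12% lower. The lists were drawn up with earlier results of these data known. Of 17 regulators and neighbours of Il4, 8 were detected well enough to be tested. Of these, 2 were called higher and 0 lower (median 0.01, against 0.01 over all genes). Junb, an AP-1 subunit gene, stood at 8.60 with both agents and 8.55 with BayK8644(2a) at 24 h, against 8.06 with Exendin-4 and 7.78 with DMSO, and rose by 0.66 ± 0.13 (limma adjusted p = 0.0261). Cebpb, a transcription factor gene, rose by 0.45 ± 0.09 at 24 h (limma adjusted p = 0.019). At 2 h, where 1.63% of genes were called (1.15% higher, 0.481% lower), Cebpb was the list member called, higher by 0.59 ± 0.09 (limma adjusted p = 0.00977). Of the 8 tested, 6 were higher at 2 h. Junb differed by 0.62 ± 0.13 and Maf by 0.31 ± 0.065 at that time, and neither passed (limma adjusted p = 0.0622 and 0.0553). Leaving out any 1 array of 0.5 or 24 h ended the Junb call (adjusted p reaching 0.0921). Leaving out any 1 array of 0.5 h, or at 24 h the combination or Exendin-4 array, ended the Cebpb call at 24 h (reaching 0.12). The Cebpb call at 2 h ended on leaving out any of the 4 arrays of that time (reaching 0.146).

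The NFAT gene Nfatc3 lay between 10.05 and 10.40 on all arrays and differed by 0.01 at 24 h (limma adjusted p = 0.975). Nfatc1, Nfatc2, Nfatc4 and Gata3, the last a regulator of T helper 2 cells, were at most 3.02 on all arrays. The neighbouring cytokine genes Il13 and Il5, which lie beside Il4 on chromosome 11, stayed between 2.84 and 2.91 and between 2.76 and 2.85. Of these 3 cytokine genes, Il4 was the one that went above log2 4. Of 13 genes of IL-4 receptor signalling 7 were tested, and 0 were called at 24 h by limma (1 with an unadjusted p under 0.05). Il4ra, which encodes the receptor chain that binds IL-4, stayed between 2.37 and 3.19 on all arrays. Stat6, its signal transducer, differed by 0.27 (limma adjusted p = 0.415).

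Of 26 other S100 and annexin genes, 8 were tested. At 24 h 2 were called higher and 0 lower (median 0.41, against 0.01 over all genes). S100a6, which encodes calcyclin and lies on chromosome 3 as S100a10 does, rose by 1.29 ± 0.10 (limma adjusted p = 0.000271). It stood at 12.59 with both agents and 12.41 with BayK8644(2a) at 24 h, against 11.08 with Exendin-4 and 11.33 with DMSO, and kept its call whichever array was left out. Anxa5, an annexin gene, rose by 0.41 ± 0.06 (limma adjusted p = 0.007), a call that ended on leaving out the combination or Exendin-4 array of 24 h (adjusted p reaching 0.0766). Anxa2, which encodes the binding partner of S100a10, had 8.59 with both agents and 8.07 with BayK8644(2a) at 24 h, against 7.35 with Exendin-4 and 8.02 with DMSO. Its difference of 0.64 ± 0.27 did not pass (limma adjusted p = 0.202).

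Of 24 other genes of prostaglandin synthesis, transport and reception, 8 were tested. At 24 h 2 were called higher and 1 lower (median 0.27). Ptger4, an E prostaglandin receptor gene, rose by 0.71 ± 0.15 (limma adjusted p = 0.027), and Abcc4, a transporter gene that exports prostaglandins, by 0.35 ± 0.07 (limma adjusted p = 0.0213). Ptger3, another E prostaglandin receptor gene, fell by 0.71 ± 0.16 (limma adjusted p = 0.0377). The Ptger3 call ended on leaving out any 1 of the 16 arrays (adjusted p between 0.0568 and 0.138). Leaving out the combination or Exendin-4 array of 24 h ended the calls of Abcc4 (reaching 0.128) and Ptger4 (reaching 0.242), and leaving out any 1 array of 0.5 h also ended that of Ptger4. Ptgs2, the inducible cyclooxygenase gene that supplies prostaglandin H, stayed between 2.74 and 2.84. Ptgs1, the other cyclooxygenase gene of the list, had no probe set under that symbol alone and could not be read. The D prostaglandin receptor genes Ptgdr and Ptgdr2 were at most 2.25, and Ptgds, the other prostaglandin D synthase gene, at most 3.19.

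**Figure D4:**
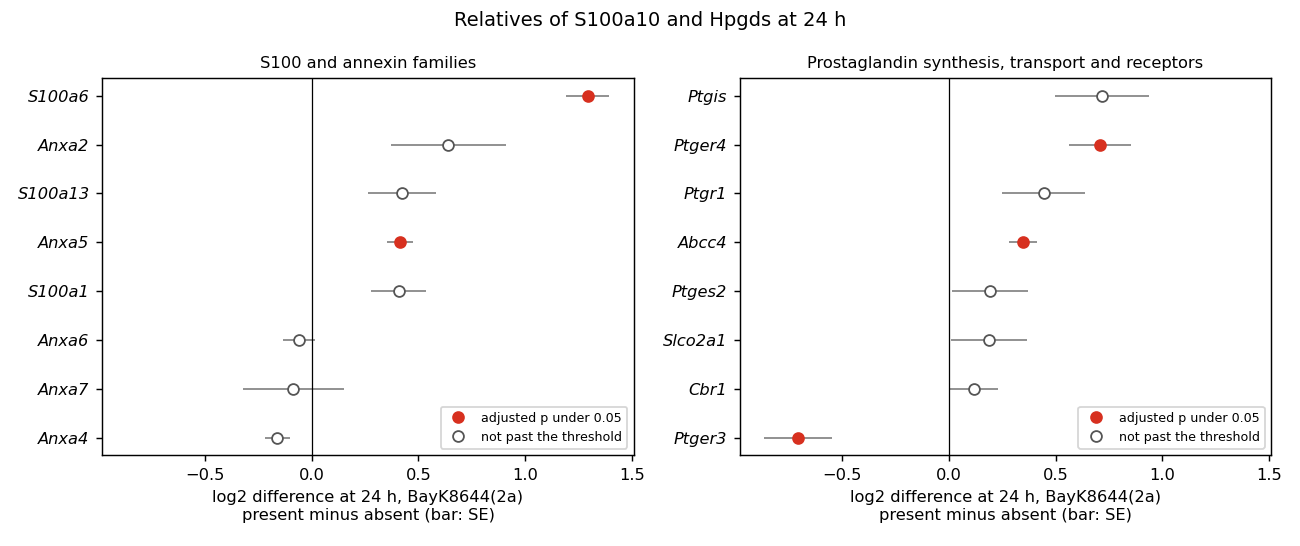
Log2 difference at 24 h, BayK8644(2a) present minus absent (horizontal axis, bars are SE), for the 8 tested S100 and annexin genes on the left and the 8 tested prostaglandin genes on the right, with calls filled. S100a6 stands at 1.29 and Ptger3 at -0.71.

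Markers of other cells were read because Il4 and Hpgds are known from leukocytes and mast cells, Scel from squamous cells and Tmem212 from ciliated cells. Of 15 leukocyte markers with a probe set, 14 stayed under log2 4 on all 16 arrays, Ptprc, Cd3e and Cd4 among them. The summed intensity was 1120 to 1620 with BayK8644(2a) and 1020 to 1330 without it. Most of that sum was Coro1a, between 9.9 and 10.6, and the other markers were at most 3.14. Of 11 mast cell and basophil markers 9 stayed under log2 4, Cpa3, Ms4a2 and Fcer1a among them. Kit, a receptor gene of that list, fell by 0.74 ± 0.10 at 24 h (limma adjusted p = 0.00427), a call which ended on leaving out the combination or Exendin-4 array of 24 h (adjusted p reaching 0.0541). Hdc, which encodes histidine decarboxylase and was the other gene of that list tested, stood at 4.57 with both agents and 4.45 with BayK8644(2a) at 24 h, against 4.12 with Exendin-4 and 4.21 with DMSO, a difference of 0.34 ± 0.13 that did not pass (limma adjusted p = 0.159). The mast cell list summed to 407 to 676 with BayK8644(2a) and 566 to 872 without it. Of 20 squamous markers 17 stayed under log2 4, Ivl, Krt5 and Trp63 among them. On all arrays Evpl lay between 10.52 and 11.11, Krt10 between 7.55 and 8.19, and Lor between 5.66 and 8.30. Of these 3 tested genes limma called 0 at 24 h (1 at an unadjusted p under 0.05). The squamous list summed to 1980 to 2270 with BayK8644(2a) and 2050 to 2610 without it. Its part in the Scel result was not tested. Of 25 ciliated cell markers 15 stayed under log2 4, Foxj1 among them, and limma called 0 of the 9 tested (5 at an unadjusted p under 0.05). Tppp3 differed by 0.46 ± 0.12, Rsph1 by 0.47 ± 0.13 and Dnaic2 by 0.59 ± 0.17 at 24 h (limma adjusted p = 0.0553, 0.0708 and 0.0807). Dnaic1 and Rfx2 went the other way, by -0.35 ± 0.15 and -0.30 ± 0.13 (limma adjusted p = 0.208 for both). Of the 9 tested, 5 were higher with BayK8644(2a), and the median was 0.04. Capsl, which was not tested because 1 array alone reached log2 4, stood at 4.91 with both agents and 3.93 with BayK8644(2a) at 24 h, against 2.94 with Exendin-4 and 3.51 with DMSO. The ciliated list summed to 4480 to 5270 with BayK8644(2a) and 4040 to 4860 without it, and its part in the Tmem212 result was not tested. Of 12 mesenchymal and endothelial markers 10 stayed under log2 4, Col1a1 and Pecam1 among them, while Vim, the vimentin gene, rose by 0.97 ± 0.09 (limma adjusted p = 0.000499) and kept its call whichever array was left out. Its list summed to 1300 to 2520 with BayK8644(2a) and 1130 to 1300 without it. Most of that sum was Vim, between 10.06 and 11.26, and the other markers were at most 4.08. The part of mesenchymal and endothelial cells in the results was not tested. Fewer cells of a type and less RNA per cell cannot be told apart in these bulk samples.

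All 11 beta-cell markers with a probe set were above the filter, with a summed intensity of 215000 to 229000 with BayK8644(2a) and 211000 to 236000 without it. Of them, 1 was called at 24 h and 5 had an unadjusted p under 0.05. The call was Nkx2-2, a transcription factor gene, which fell by 0.64 ± 0.06 (limma adjusted p = 0.000499) and likewise kept its call. Nkx2-2 was called at 2 h too, with a difference of -0.385 ± 0.06 (limma adjusted p = 0.0113). Array-wide values were close, with medians of 10.5 to 11.6 in intensity and 46.7 to 47.7% of probe sets at log2 4 or more. The number of arrays limits the precision.

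A floor level without BayK8644(2a) together with a level above log2 4 with it was seen in 18 of 10610 genes (0.17%), those with all 8 arrays without BayK8644(2a) under log2 4 and both arrays with it at 24 h above. Of the 5 members Scel was among them, at rank 5 by its mean at 24 h, and the other members were not. Kcnh1, a potassium channel gene, led with 6.86 with both agents and 5.93 with BayK8644(2a), against at most 3.04 without it. Etv4, an Ets factor gene, followed with 5.98 with both agents and 6.34 with BayK8644(2a), against at most 3.56 without it. Cd274, which encodes the immune checkpoint ligand PD-L1, had 5.85 with both agents and 5.02 with BayK8644(2a), against at most 3.60 without it. Qpct, the gene of an enzyme that forms pyroglutamate at peptide ends, had 5.54 with both agents and 4.89 with BayK8644(2a), against at most 3.18 without it. Kcnip2, a potassium channel subunit gene, had 4.45 with both agents and 5.24 with BayK8644(2a), against at most 3.39 without it.

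The genes whose levels ran most like those of the members were read by Pearson r over the 16 arrays, which share times and treatments, so r is a description. For Il4 they were Hsd17b12, a fatty acid elongation gene (r = 0.971), and Tnfrsf12a, the TWEAK receptor gene (0.964). Hsd17b12 was high without BayK8644(2a) too, at 12.59 with both agents and 12.60 with BayK8644(2a) at 24 h, against 11.72 with Exendin-4 and 11.86 with DMSO. Kcnh1 headed the lists of both S100a10 (0.973) and Tmem212 (0.955). S100a10 was next followed by Hacd1, of fatty acid elongation (0.959), and Rem2, a GTPase gene that restrains calcium channels (0.954). Tmem212 was followed by Ctsl, a lysosomal protease gene (0.951), and Hdlbp (0.950). Scel ran with Mrps12, a mitochondrial ribosomal protein gene (0.949), Tmem97 (0.948) and Emc7 (0.943). Hpgds ran with Slc19a2, a thiamine transporter gene (0.941), Ctsa, a lysosomal enzyme gene (0.929), and Thyn1 (0.925). Slc19a2 at 24 h stood at 10.39 with both agents, 10.09 with BayK8644(2a) and 10.13 with Exendin-4, against 9.82 with DMSO.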

How the data were processed

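Expression was measured on 16 one-colour Affymetrix arrays of total RNA, 1 for each treatment and time. The authors deposited intensity values on a linear scale. The submitters' processing notes name GCRMA, without a version. These deposited values were turned into log2 without adding a constant. Gene symbols came from the platform annotation (34945 probe sets with 1 symbol, 932 with several, 9211 with none), and those with several or no symbols were left out, as were 13 control probe sets with 1 symbol. The probe set with the highest mean stood for a gene. The fits used limma 3.58.1 in R 4.3.3 (lmFit, eBayes with trend), with terms for time and an effect of each agent at each time (4 residual degrees of freedom), plus 1 common interaction where that was tested (3). The error is pooled over times and comes from departures of the 2 agents from adding up. With the interaction in the model it comes from the change of that interaction over the times. Benjamini-Hochberg adjustment covered all 10610 genes at 0.05. The fit was also run on simulated data with independent noise around a flat mean of each gene, which does not show how it performs on these arrays. Named genes were the members, the 3 genes most like each by r (1 of those of Il4 is not reported here), up to 3 called genes per list, the 5 highest other genes of the near-floor class, and Ptger3 and Anxa2. Other list genes, such as those named for levels under log2 4, were picked after their values were seen. The members and lists were chosen with earlier results of these data known. Alternatives were the filter, a pseudocount, a floor, every probe set, the variance trend, 2 normalizations, the model, the level of rise, and each array left out.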

Additional observations from a re-analysis of the deposited data

How the results depend on the processing

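Of 25 tests of the members against Exendin-4 or the interaction, 0 passed under any alternative tried. BayK8644(2a) present against absent called 173 genes at 2 h and 542 at 24 h. With an interaction added to the model these counts were 106 and 285, and without the variance trend the 24 h count was 321. With 1 array left out they ran from 19 to 242 at 2 h and from 116 to 1467 at 24 h, lowest at 2 h without the Exendin-4 or combination array of 2 h. At 24 h it was 116 on leaving out the combination array of that time, 1467 for the BayK8644(2a) array, 126 for the Exendin-4 array and 1462 for the DMSO array, and 274 to 276 without any 1 array of 0.5 h. At 2 h it was 87 without any 1 array of 0.5 h and 50 without the DMSO or BayK8644(2a) array of 2 h. Exendin-4 at 0.5 h called 1 gene, 3 with no filter, and 1 to 2 with 1 array left out. At 2 h it called 2 genes, 0 with every probe set or without the trend, and 0 to 2 with 1 array left out. At 24 h it called 0, and 2 with no filter. The cause of these shifts was not tested. The size of a difference from the floor depends on the scale: at 24 h, adding 16 to each intensity gave 0.87 for Scel, 0.44 for Hpgds, 2.32 for Il4 and 2.39 for Tmem212, in place of 1.58, 0.84, 3.28 and 3.01. With 16 as a floor, the Hpgds difference at 2 h was 0. Calls in the BayK8644(2a) contrast at 24 h that an alternative setting ended were Junb and Ptger4 with every probe set (adjusted p = 0.0598 and 0.0634), Ptger3 with no filter or every probe set (0.0664 and 0.0811), and Junb and Abcc4 with the interaction added (0.0647 and 0.059). Values near the floor do not show whether a gene was expressed there.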

Other observations

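One squamous marker was called at 2 h. Lor, which encodes loricrin of the cornified envelope, stood at 8.30 with both agents and 7.90 with BayK8644(2a) at 2 h, against 5.90 with Exendin-4 and 6.79 with DMSO, a difference of 1.76 ± 0.32 (limma adjusted p = 0.0318). At 24 h it stood at 6.46 with both agents and 6.99 with BayK8644(2a), against 5.96 with Exendin-4 and 5.66 with DMSO, and the difference of 0.92 ± 0.32 did not pass (limma adjusted p = 0.14). Lor was picked after its values were seen. Its call at 2 h was lost without any 1 array of 0.5 h or without the Exendin-4 or combination array of 2 h (adjusted p up to 0.391). It was also lost with no filter, with every probe set, without the variance trend and with an interaction added (adjusted p = 0.0606, 0.11, 0.0766 and 0.061).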
